A study of Mus musculus with 3 samples.

Results

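Semaphorins, plexins, ephrins, Eph receptors, Slits, Robos, netrins and netrin receptors were read across 3 libraries of mouse brain microvascular fragments. They were taken from the deposited count table by gene symbol alone, which gave 68 genes of 56941, namely 35 ligands and 33 receptors. The fragments are short pieces of small brain vessel with the cells attached to them, isolated from adult wild-type C57BL/6J mice by breaking up brain tissue mechanically and with enzymes. All 3 libraries of polyadenylated RNA belong to this 1 group, with no treated, mutant or sorted sample analysed here, and were taken as separate mice from the series' text. The labels name no sex, exact age or batch. Levels below are therefore descriptions, and the one test is of the spread between the mice.

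These proteins were first described as the cues that steer growing axons, and many of them also act on endothelial cells. Semaphorins signal through plexins, often with a neuropilin as co-receptor. Ephrins and Eph receptors are both membrane-bound and signal in both directions where cells touch. Slits bind Robo receptors, and netrins bind Dcc, neogenin and the Unc5 receptors. In vessels, ephrin-B2 marks arteries and its receptor EphB4 marks veins, plexin-D1 and Robo4 are receptors of endothelial cells, and Unc5b acts in vessel branching.

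Depth ran from 128428355 to 150449539 counts per library. Levels are given in TPM, the usual length-scaled unit of transcript abundance, here the counts divided by the annotated exonic length of each gene and rescaled to the same total in each library, so that different genes can be set side by side. A gene was called detected at 1 CPM (counts scaled by library size but not by length) or more in every library. All 12 endothelial markers were detected, with a median of 734 TPM and summed levels of 17179, 20927 and 21298 TPM in replicates 1, 2 and 3. All 8 markers of pericytes, 6 of smooth muscle, 8 of astrocytes, 8 of microglia and 8 of choroid plexus and ependyma were detected too, with medians of 197, 411, 46.6, 776 and 62.4 TPM. Neuronal markers had a median of 2.75 TPM with 8 of 9 detected, oligodendrocyte markers 7.89 TPM with 6 of 7, precursor markers 1.58 TPM with 4 of 6, and markers of fibroblasts and meninges 7.98 TPM with 7 of 7. Summed pituitary markers stood at 58.9, 5598 and 49.8 TPM and erythroid markers at 4854, 609 and 270.1 TPM, with 1 of 8 and 5 of 6 detected in every library. No marker of these lists had a count of 0 in any library. In bulk RNA, fewer cells of a type and less RNA per cell cannot be told apart, and no transcript can be assigned to one cell type.

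Guidance genes were found in every family, and a few of them held most of the signal. Of the 68 genes, 51 (75.0%) were detected, against 23.2% of all genes in the table and 61.6% of genes annotated as protein coding. The detected genes comprised 28 of 35 ligands and 23 of 33 receptors. The median over all 68 was 4.05 TPM, with an SD of 0.384 over the medians of the 3 libraries, beside 5.47 TPM over protein-coding genes and 20.1 TPM over all detected genes. At 10 TPM or more stood 27 genes (39.7%, against 42.7% of protein-coding genes and 17.8% of all genes with a length), and 9 reached 100 TPM (13.2%, against 8.22% and 3.39%). Those 9 were Sema7a, Sema3g, Robo4, Sema3c, Ephb4, Ntn4, Efna1, Plxnb2 and Plxnd1, in order of level. Together the 68 genes summed to 3784, 4095 and 4804 TPM in the 3 libraries, of which the 5 highest held 66.0% and Sema7a alone 36.0%. The 21 membrane-bound ligands summed to 2077 ± 351 TPM (SD, n = 3), the 14 secreted ligands to 1009.9 ± 89.1 TPM and the 33 receptors to 1141 ± 121 TPM.

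**Figure D1:**
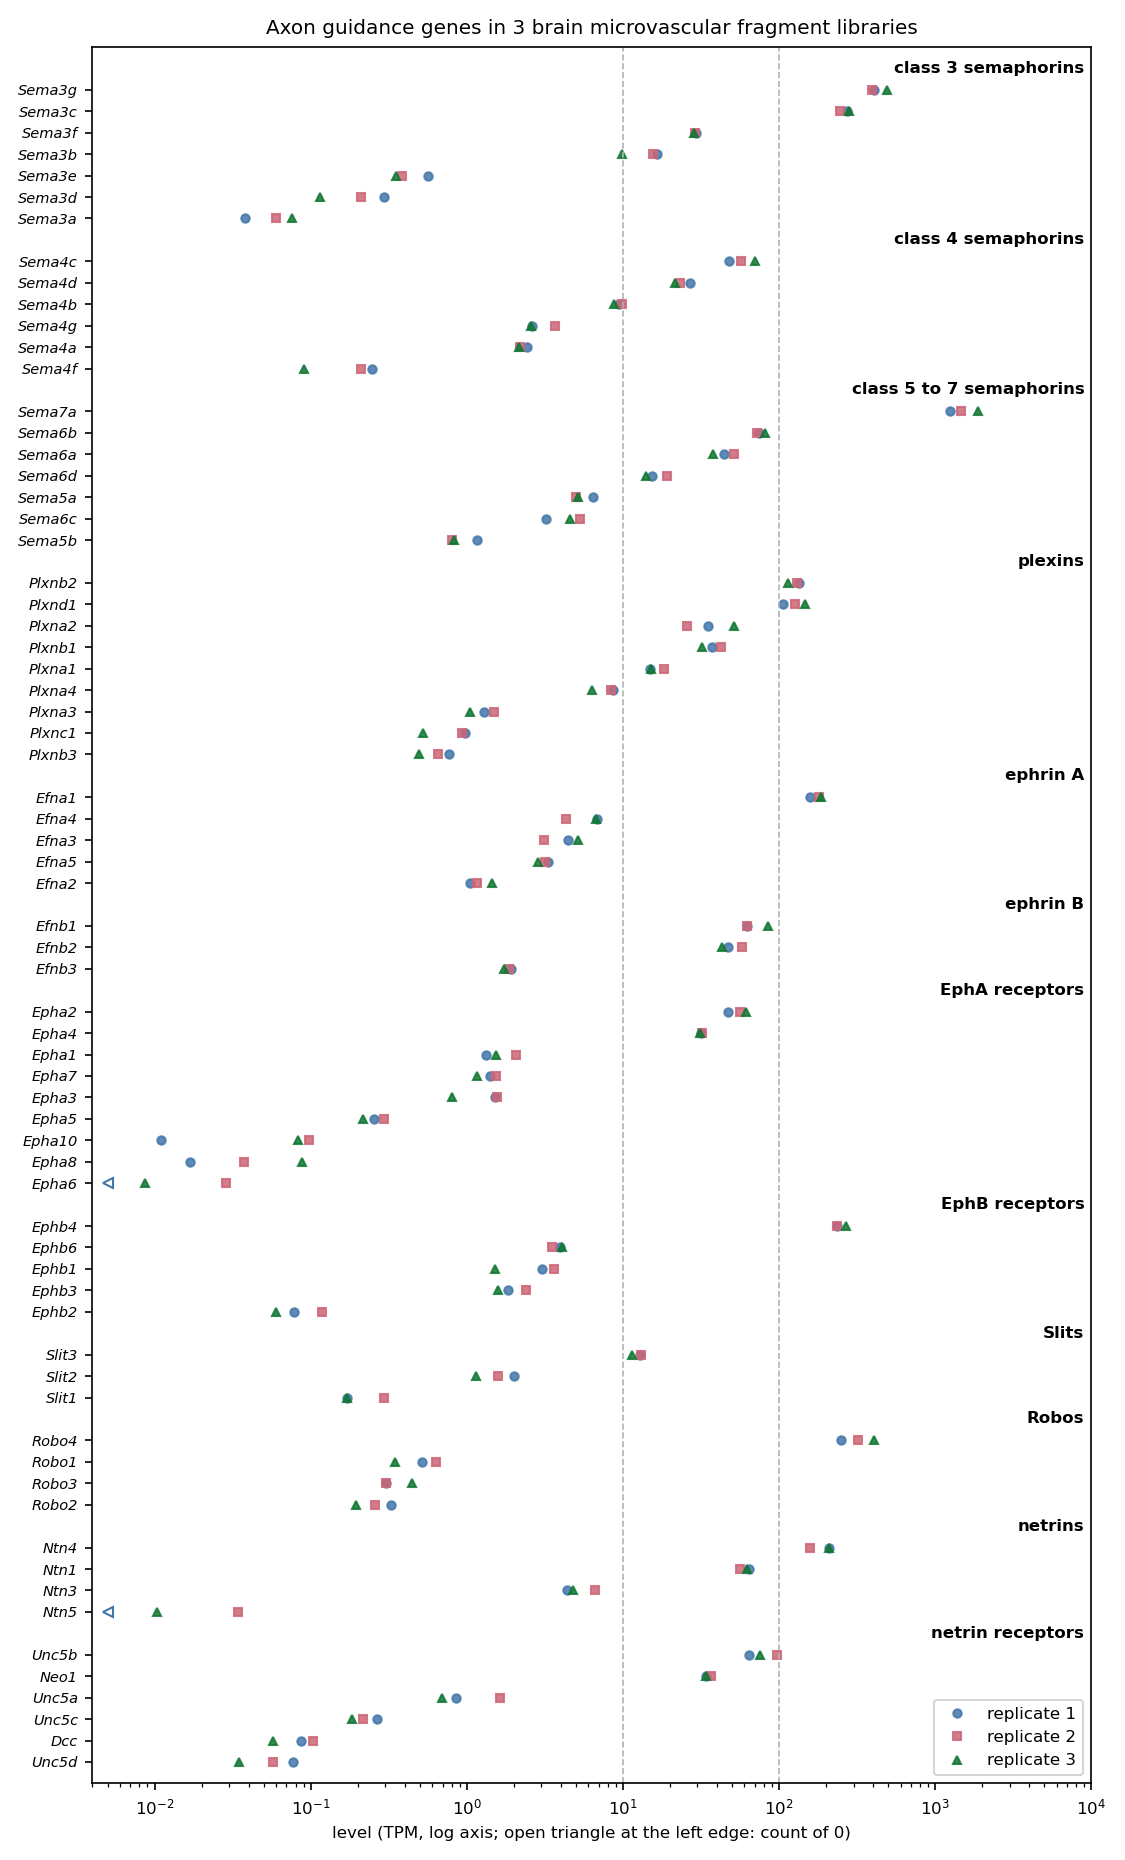
Level of each of the 68 genes in each library (TPM on a log axis; circles, squares and triangles are replicates 1, 2 and 3), grouped by family and sorted by mean level; dashed lines mark 10 and 100 TPM, and open triangles at the left edge mark a count of 0. In most families 1 or 2 genes lie far to the right of the rest, with Sema7a farthest, and the 3 libraries of most genes lie closer together than the steps between the high and the low members of a family.

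Promoter windows are shown for 4 genes because they put a leading gene of this set beside a low relative and beside further leading genes, and they were chosen after their values were seen: Robo4 and its low paralog Robo1, the secreted Sema3g and the abundant Sema7a. RefSeq windows of 300 bases, from 250 before to 50 after the annotated start on build GRCm38.p6, were found for 58 of the 68 genes (74 windows). Capitals mark CG dinucleotides, the sites of DNA methylation in mammals.
Robo4, chr9:37401722-37402021, plus strand: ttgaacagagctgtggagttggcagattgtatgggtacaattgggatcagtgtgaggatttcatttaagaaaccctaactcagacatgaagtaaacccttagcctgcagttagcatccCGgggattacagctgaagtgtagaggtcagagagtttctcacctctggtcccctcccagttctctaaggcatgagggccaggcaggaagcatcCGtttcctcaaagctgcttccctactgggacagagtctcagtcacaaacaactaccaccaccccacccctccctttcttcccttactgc
Robo1, chr16:72662899-72663198, plus strand: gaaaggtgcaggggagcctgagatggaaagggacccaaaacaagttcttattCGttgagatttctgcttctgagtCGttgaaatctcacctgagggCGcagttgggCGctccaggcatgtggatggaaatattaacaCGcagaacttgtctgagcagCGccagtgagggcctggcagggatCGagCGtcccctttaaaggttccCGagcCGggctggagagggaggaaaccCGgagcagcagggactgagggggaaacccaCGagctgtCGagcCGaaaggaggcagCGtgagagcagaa
Sema3g, chr14:31217623-31217922, plus strand: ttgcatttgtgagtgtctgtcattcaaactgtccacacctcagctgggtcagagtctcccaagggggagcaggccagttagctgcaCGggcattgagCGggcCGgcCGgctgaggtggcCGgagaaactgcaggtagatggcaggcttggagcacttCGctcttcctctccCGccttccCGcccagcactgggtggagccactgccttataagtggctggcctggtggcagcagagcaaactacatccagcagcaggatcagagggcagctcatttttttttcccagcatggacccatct
Sema7a, chr9:57939862-57940161, plus strand: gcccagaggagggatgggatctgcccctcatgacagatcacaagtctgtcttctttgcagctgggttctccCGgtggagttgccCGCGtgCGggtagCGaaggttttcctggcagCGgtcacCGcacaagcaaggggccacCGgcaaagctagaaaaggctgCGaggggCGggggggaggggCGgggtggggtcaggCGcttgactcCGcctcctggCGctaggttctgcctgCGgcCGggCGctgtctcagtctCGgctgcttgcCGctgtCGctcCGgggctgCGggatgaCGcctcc

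The Robo4 window held 2 CG dinucleotides, a ratio of observed to expected CG of 0.106, and the Robo1 window held 15, a ratio of 0.653. Robo3 had 0.600, and the 3 windows of Robo2 had 0.335 to 0.554, so the CG-poorest window of the Robo family was that of its most abundant member. Sema3g was also CG-poor with 8 and a ratio of 0.310, whereas Sema7a had 23 and 0.690 and Sema3c had a ratio of 0.979. Over all 32841 windows of the table the median ratio was 0.384, and 51.4% lay under 0.4. Among the windows of the guidance genes the median was 0.662, and 16 of 74 (21.6%) lay under 0.4. All windows together cover 27018 genes, and no share was taken over protein-coding genes alone. The difference is therefore not shown to be particular to guidance genes. The windows were also searched on both strands for AGGAAG, a core sequence of sites bound by ETS factors, which include endothelial regulators. No other motif was searched. It begins 49 bases before the start on the printed strand of the Robo4 window. The Sema3g match is on the other strand and reads CTTCCT in the printed letters, from 89 bases before the start. The motif is in neither the Robo1 nor the Sema7a window. At least 1 window held it for 5 of the 9 genes at 100 TPM or more and for 21 of the 49 others with a window. It is in 36.5% of the guidance windows against 35.4% of all windows. A match describes these letters only and shows neither binding nor use.

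**Figure D2:**
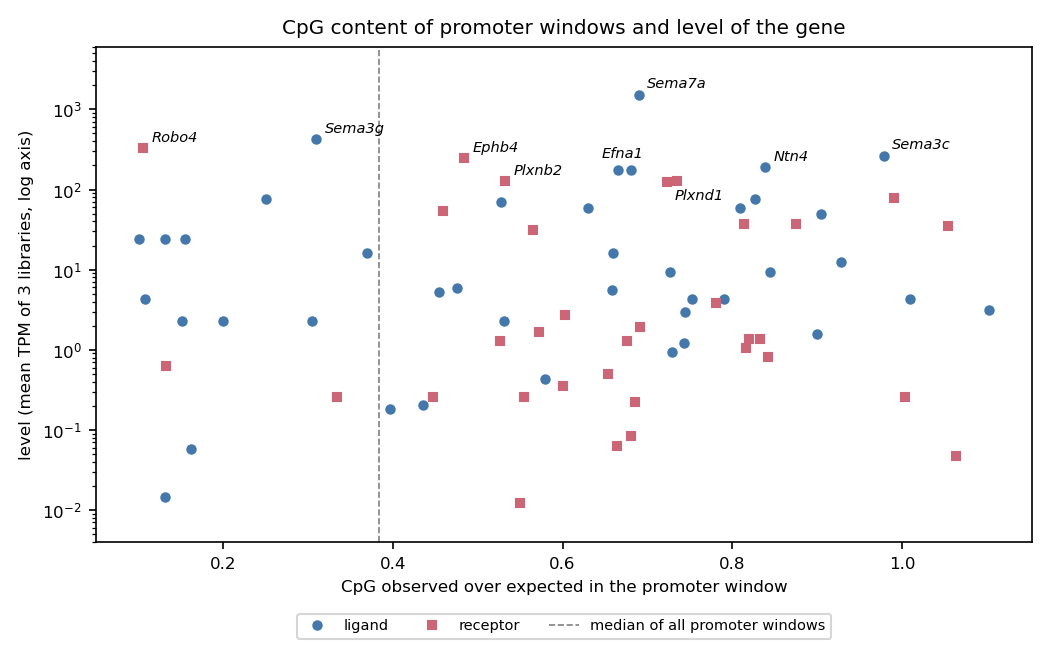
Ratio of observed to expected CG in each promoter window (horizontal) against the mean level of its gene over 3 libraries (TPM, log axis), for 74 windows of 58 genes; circles are ligands, squares receptors, and the dashed line is the median of all windows. Genes at 100 TPM or more are named; they spread from Robo4 at 0.106 to Sema3c at 0.979, and genes with several windows appear more than once.

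Among the class 3 semaphorins, which are secreted, Sema3g and Sema3c stood above the other 5. Sema3g, known as a gene of arterial endothelium, had 404, 393 and 489.7 TPM in replicates 1, 2 and 3 (429 ± 52.8, SD), at percentile 97.4 of the detected genes. Sema3c had 272, 245 and 278 TPM (265 ± 17.9). Sema3g was the higher one in each of the 3 libraries, by 0.69 ± 0.12 on the log2 scale. With the longest transcript as length the ratio was 0.31, with the order kept in 3 of 3. In CPM, Sema3c was the higher one in replicate 1 (562 against 532 CPM). Sema3f (28.9 ± 0.41 TPM) and Sema3b (14.0 ± 3.57 TPM) followed, with Sema3c 9.14-fold above Sema3f. Sema3e, the ligand that binds plexin-D1 without a neuropilin, had 0.562, 0.387 and 0.350 TPM. At 1.51, 1.02 and 0.978 CPM it missed the detection limit narrowly, in replicate 3 only. Sema3d (0.206 ± 0.089 TPM) and Sema3a (0.058 ± 0.019 TPM), a classic repellent of axons, were under the limit in every library. The widest step in the order of the 7 genes was the 32.2-fold one from Sema3b to Sema3e.

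Class 4 semaphorins, which span the membrane, were present at moderate level. Sema4c led with 47.8, 56.9 and 69.7 TPM, and Sema4d, a plexin-B1 ligand, followed with 26.8, 23.2 and 21.7 TPM. The order was the same in all 3 libraries, with a log2 ratio of 1.27 ± 0.43, although Sema4c was highest in replicate 3 and Sema4d in replicate 1. Sema4b had 9.37 ± 0.54 TPM, Sema4g 2.95 ± 0.62 TPM and Sema4a 2.26 ± 0.15 TPM. Sema4f was not detected (0.182 ± 0.081 TPM).

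Sema7a was the highest of all 68 genes by a wide margin. It encodes a semaphorin held to the membrane by a lipid anchor, which binds integrins and plexin-C1. Its level was 1235, 1462 and 1870.45 TPM (1522 ± 322), at percentile 99.5 of the detected genes and rank 70 of the 49086 genes with a length. In all 3 libraries that was above 3 endothelial markers, named here after their values were seen, Flt1 (977 ± 95.7 TPM), Cdh5 (870.3 ± 43.9 TPM) and Pecam1 (789 ± 91.3 TPM). It was under the markers Cldn5 (8367 ± 1355 TPM) and Ly6c1 (5052 ± 971 TPM). Without length scaling Flt1 was the higher one, with a mean of 3852 CPM against 1470 CPM. With the longest transcript as length, the mean of Sema7a was 1186 TPM. Replicate 3 was the highest and replicate 1 the lowest, and even the lowest lay above every value of the next gene, Sema3g. None of the 100-base stretches of its annotated transcripts occurs in another annotated gene, and no other gene's exons overlap it.

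Class 6 semaphorins also span the membrane and act mainly through A-type plexins. Sema6b had 74.6, 72.1 and 81.2 TPM and Sema6a 44.5, 51.2 and 37.8 TPM, and the 2 did not overlap. Sema6d had 16.2 ± 2.66 TPM and Sema6c 4.36 ± 1.06 TPM. Of the class 5 genes, Sema5a had 5.52 ± 0.77 TPM and Sema5b 0.928 ± 0.202 TPM. Sema5a and Sema6c changed order between libraries, so their levels were not separated. Of the summed level of classes 5 to 7, Sema7a held 90.9 ± 1.74%.

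Plexins, the semaphorin receptors, showed no single leader. Plxnb2 had 134, 129.6 and 114.5 TPM and Plxnd1 105.1, 126 and 146 TPM. Plxnb2 was the higher in replicates 1 and 2 and Plxnd1 in replicate 3, a log2 ratio of 0.014 ± 0.35, so the 2 were not separated. Plxna2, at 34.8, 25.7 and 51.8 TPM, and Plxnb1, at 37.4, 42.6 and 32.1 TPM, were not separated either. Plxna4 had 7.80 ± 1.24 TPM. Plxna1 had 16.1 ± 1.88 TPM, and exons of Gm26811 cover 10.7% of its exonic length. Plxna3 (1.28 ± 0.23 TPM) and Plxnc1 (0.978, 0.926 and 0.526 TPM) were low but detected. Plxnb3 (0.637 ± 0.134 TPM) missed the limit in replicate 3 only, at 1.44, 1.20 and 0.971 CPM. Plxnb2 held 35.8 ± 4.33% of the family's sum, the lowest share of a leading gene among the 12 families. Neuropilins, the co-receptors that class 3 semaphorins use with plexins, were detected at 83.5 ± 5.15 TPM (Nrp1) and 46.6 ± 5.31 TPM (Nrp2); these 2 are named for that role, with their values known.

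**Figure D3:**
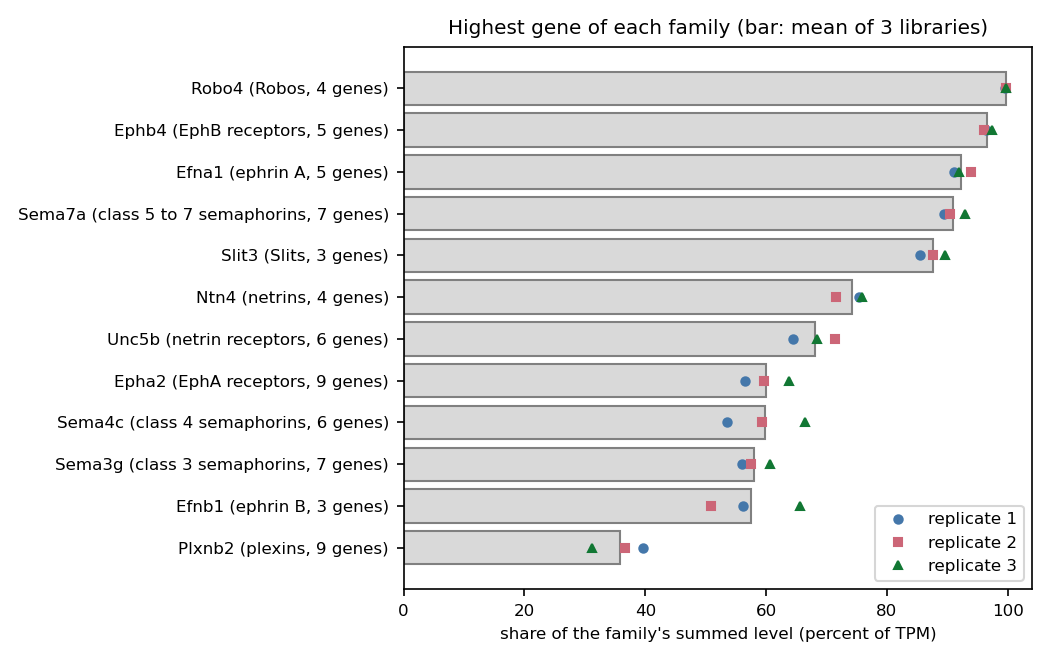
Share of each family's summed level (percent of TPM, horizontal) held by its highest gene; bars are the mean of 3 libraries and symbols the single libraries. Robo4, Ephb4, Efna1 and Sema7a hold over 90% of their families on average, whereas Plxnb2 holds 35.8%.

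A-type ephrins, which are lipid-anchored, were dominated by Efna1. This gene had 158, 180.2 and 185 TPM (174 ± 14.6), which was 92.3 ± 1.46% of the sum of the 5 genes. Efna4, the next, had 6.78, 4.33 and 6.70 TPM. Efna3 (4.25 ± 1.05 TPM) and Efna5 (3.11 ± 0.22 TPM) changed order between libraries, and Efna2 was not detected (1.21 ± 0.20 TPM, or 0.757 ± 0.147 CPM). Exons of other genes cover 14.1% of the length of Efna3 and 10.5% of Efna4.

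B-type ephrins, which span the membrane, had 2 abundant members of 3. Efnb1 had 62.6, 61.9 and 85.4 TPM and the arterial marker Efnb2 46.8, 57.9 and 43.1 TPM. Efnb1 was the higher one in 3 of 3 libraries, by 0.50 ± 0.45 on the log2 scale, but with the longest transcript as the length of each gene the ratio was 0.067 and Efnb1 was the higher in 1 of 3. Efnb3 had 1.84 ± 0.10 TPM. Arterial and venous marker lists were both present, with medians of 141 and 179.6 TPM and all 8 and 7 genes detected.

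The EphA receptors were led by Epha2, which binds ephrin-A1, and Epha4, which binds ephrins of both types. Epha2 had 46.9, 55.9 and 61.3 TPM and Epha4 31.6, 32.3 and 30.9 TPM, and the values of the 2 did not overlap. Epha4 had the lowest spread of all guidance genes at 10 TPM or more, with a coefficient of variation of 0.824% in CPM. The other members were scarce. Epha1 (1.65 ± 0.38 TPM), Epha7 (1.37 ± 0.20 TPM), Epha3 (1.29 ± 0.42 TPM) and Epha5 (0.256 ± 0.039 TPM) were detected, and the first 3 of these were not separated from each other. Epha10 (3, 28 and 26 counts), Epha8 (3, 7 and 18 counts) and Epha6 (0, 6 and 2 counts) were not detected. For a library with a count of 0, as for Epha6 in replicate 1, the upper limit is 3 counts, or 0.0231 CPM there.

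Ephb4 alone carried the EphB family. The venous receptor had 234, 235 and 269.6 TPM (246 ± 20.2), at percentile 95.2 of the detected genes, and held 96.6 ± 0.70% of the summed level of the 5 genes. Ephb6, which has lost kinase activity, had 3.95, 3.53 and 4.06 TPM. Ephb1 (3.01, 3.64 and 1.51 TPM) changed order between libraries with Ephb6 above it and with Ephb3 (1.93 ± 0.41 TPM) below it. Ephb2, a neuronal receptor, had 0.0778, 0.117 and 0.0599 TPM and was not detected. Ephb4 exceeded Ephb6 by 64.0-fold.

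Of the Slits, secreted ligands of the Robo receptors, Slit3 was the highest at 12.8, 13.1 and 11.3 TPM. Slit2 had 2.00, 1.57 and 1.14 TPM, a mean of 1.57 TPM that became 3.13 TPM with the longest transcript as its length. Its annotated exons add up to 25433 bases against 9960 in that transcript. Slit1 was not detected (0.212 ± 0.073 TPM). The order of the 3 was the same in every library with both lengths.

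Robo4 was almost the only Robo transcript. It had 251, 321 and 404 TPM (325 ± 76.6), at percentile 96.6 of the detected genes, with replicate 1 lowest and replicate 3 highest. Robo1 had 0.520, 0.634 and 0.348 TPM, Robo3 0.350 ± 0.082 TPM and Robo2 0.260 ± 0.066 TPM, and these 3 changed order between libraries. Robo4 held 99.6 ± 0.11% of the summed level, and 99.4% with the longest transcript as length. The ratio of Robo4 to Robo1 was 9.36 ± 0.71 on the log2 scale, and 8.33 with the longest transcript as length, where Robo1 had a mean of 0.852 TPM instead of 0.501 TPM.

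Netrin expression rested on a basement membrane member and on the classic one. Ntn4, a netrin related in sequence to laminins and found in vessel basement membranes, had 209, 158 and 210.07 TPM (192 ± 30.0). Ntn1 had 63.8, 56.1 and 61.9 TPM. The log2 ratio of Ntn4 to Ntn1 was 1.65 ± 0.14, and the values of the 2 did not overlap. Ntn3 had 5.26 ± 1.19 TPM, and Ntn5 had 0, 3 and 1 counts, with 23.4% of its exonic length under exons of other genes.

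Of the netrin receptors, Unc5b and neogenin were abundant and Dcc was not detected. Unc5b had 64.0, 97.4 and 75.6 TPM and Neo1, which also binds repulsive guidance molecules, 34.0, 36.9 and 33.9 TPM. Unc5b was the higher one in 3 of 3 libraries, by 1.16 ± 0.24 on the log2 scale. Dcc, the attractive netrin receptor of axons, had 0.087, 0.103 and 0.057 TPM. Unc5c was barely detected (0.222 ± 0.042 TPM, or 1.24 ± 0.22 CPM). Unc5a (1.06 ± 0.50 TPM) missed the limit in replicate 3 only, at 1.04, 1.95 and 0.875 CPM. Unc5d (0.057 ± 0.021 TPM) was under the limit in every library. The distance from Neo1 to Unc5a, the next gene, was 35.1-fold.

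Over all families, 54 pairs of genes next to each other in level could be compared within libraries, leaving out those with a count of 0. In 43 of them the order was the same in 3 of 3 libraries and the mean log2 ratio exceeded its SD. Since 3 libraries cannot give a two-sided sign-flip p under 0.25, no test is attached to these orders.

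Ligands and receptors known to bind each other were then compared within each library, for 12 pairs. The receptor was higher in 3 of 3 libraries in 5 pairs, the ligand was higher in all 3 in 6, and 1 pair changed direction. Ephb4 exceeded its artery-marking ligand Efnb2 by a log2 ratio of 2.32, 2.02 and 2.64 in replicates 1, 2 and 3, a 5.03-fold difference. The opposite held for the A-type pair, with Epha2 below Efna1 (log2 ratio of receptor to ligand -1.68 ± 0.08, SD, n = 3), although the ratio was only -0.33 in counts not scaled by length. Robo4 exceeded Slit3 by 4.68 ± 0.44, while Robo1 was below Slit2 (-1.66 ± 0.32). Direct binding of Slits to Robo4 is disputed, so that pair sets the most abundant members of the families side by side.

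Several pairs were very unequal, and of their genes Sema3e, Plxnc1 and Ephb2 were near or under the detection limit. Plxnd1 exceeded Sema3e by 8.20 ± 0.59, whereas it lay below Sema3g by a log2 ratio of -1.78 ± 0.15. Plxnc1 lay below Sema7a by -10.9 ± 0.79, a 1921-fold excess of the ligand, and Ephb2 below Efnb1 by -9.72 ± 0.72. With both genes well above the limit, Neo1 lay below Ntn4 by -2.45 ± 0.31, or -1.23 without length scaling. The remaining pairs were close to level. Unc5b over Ntn1 gave 0.0036, 0.80 and 0.29, an excess no larger than its SD of 0.40. Plxnb1 over Sema4d gave 0.64 ± 0.21, which fell to 0.015 with the longest transcript as length, and Plxna2 over Sema6a gave -0.36, -0.99 and 0.45.

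**Figure D4:**
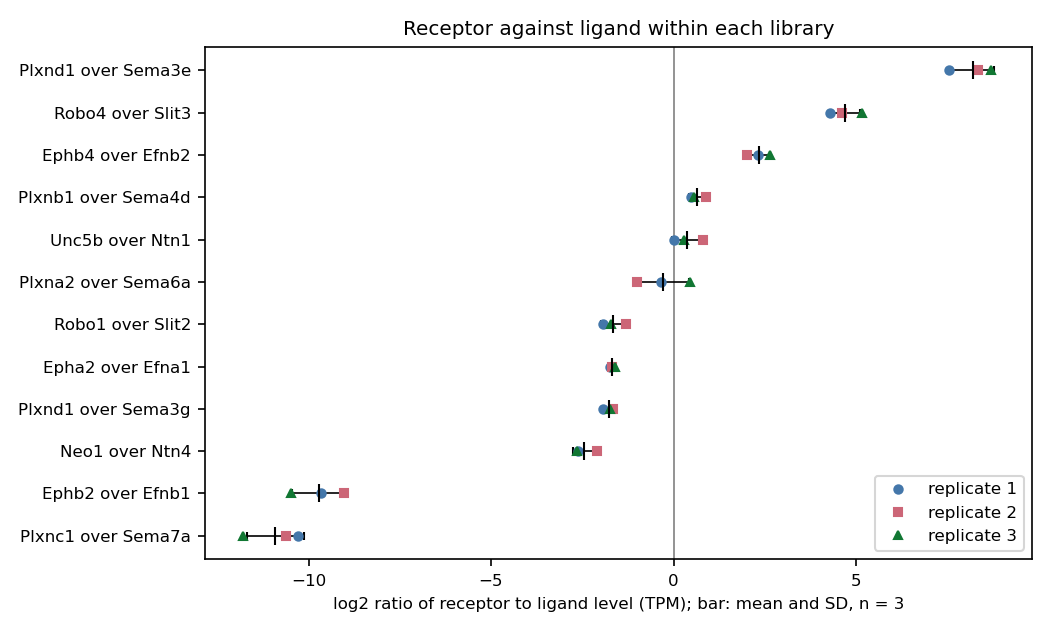
Log2 ratio of receptor to ligand level (TPM) within each library for 12 pairs; symbols are replicates 1, 2 and 3, and bars give the mean and SD (n = 3). Points right of 0 mean more receptor; Plxnd1 over Sema3e (8.20) and Plxnc1 over Sema7a (-10.9) are the extremes, and Plxna2 over Sema6a lies on both sides of 0.

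Most listed genes of the intracellular part of the pathway were detected. Of 63 listed effectors in the table, 62 were detected, with a median of 30.97 TPM, beside the 61.6% detected among all protein-coding genes. The highest were the actin-binding genes Tagln2 (794 ± 64.1 TPM) and Cfl1 (729 ± 19.0 TPM) and the small GTPase gene Rras (631 ± 100.003 TPM), whose product plexins inactivate. Of 17 co-receptors and related surface genes, 11 were detected, a share close to that of protein-coding genes, led by the integrin gene Itgb1 (814 ± 77.7 TPM), which Sema7a can engage, the VEGF receptor gene Kdr (341 ± 48.1 TPM), which is also one of the endothelial markers, and the syndecan gene Sdc3 (218 ± 31.7 TPM). In edgeR, 0 genes of either list were called for their spread between the mice (adjusted p under 0.05), beside 15 of all 18087 genes (0.0829%). At so low a rate, 0 calls do not set these lists apart and do not show an even level. The lowest adjusted p of both lists was that of the effector Rnd1 (edgeR adjusted p = 0.512), with 14.9, 35.5 and 29.7 TPM in replicates 1, 2 and 3.

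No guidance gene was called for its spread from mouse to mouse. In edgeR, a test of quasi-likelihood dispersion with Benjamini-Hochberg adjustment over 18087 genes called 0 of the 64 fitted guidance genes, against 0.0829% of all genes (15), and the lowest adjusted p among them was 0.701. At an unadjusted p under 0.05 stood 5 of the 64 (7.81%), against 5.18% of all genes. DESeq2 marked none of the 68 as a dispersion outlier, against 137 of 30513 genes with any count, a share too small to set the 68 apart. Epha6, Epha8, Epha10 and Ntn5 had too few counts to be fitted. On simulated counts the test recovered 27.0% of 2-fold shifts in 1 library and 100% of 4-fold shifts, so a 2-fold shift can pass unseen. Only the more abundant genes were shifted in the simulation, so recovery for the scarce guidance genes was not measured.

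The largest spread among the 27 genes at 10 TPM or more was that of Plxna2, with 173, 126 and 267 CPM (edgeR unadjusted p = 0.00708, adjusted p = 0.701). Replicate 3 was 2.12 times replicate 2, and this was the only one of the 27 with a ratio of 2 or more, a size reached by 1.81% of the 8741 genes at that level. Ephb1, a scarce gene, had 6.11, 7.26 and 3.19 CPM (edgeR unadjusted p = 0.0229, adjusted p = 0.926), lowest in replicate 3. Sema3b had 22.9, 21.1 and 14.2 CPM (edgeR unadjusted p = 0.0457, adjusted p = 0.952), again lowest in replicate 3. Several marker sums were lowest in that library too, among them those of astrocytes (719, 859 and 463 TPM), precursors (33.5, 35.2 and 21.7 TPM) and choroid plexus and ependyma (18824, 23298 and 13565 TPM). Their part in the Ephb1 and Sema3b values was not tested. The median coefficient of variation of the 27 genes was 12.45%, beside 8.67% for all genes at 10 TPM or more.

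Of the 9 guidance genes at 100 TPM or more, 8 had their highest CPM in replicate 3. That direction was common in the libraries, since 63.6% of all genes at 100 TPM or more were also highest in replicate 3. Both figures move with the scaling. With mitochondrial and ribosomal RNA genes left out of the TPM total, 6 of the 9 and 38.8% of all such genes were highest there. Robo4 had 385, 485 and 644 CPM, Sema7a 1180.4, 1374 and 1857 CPM and Plxnd1 223, 261 and 321 CPM, each lowest in replicate 1, where the summed endothelial markers were lowest too. The part of endothelial content in these values was not tested. Efna1, with 83.7, 94.0 and 102 CPM, was lowest in replicate 1 as well. Sema3g (532, 509 and 669 CPM), Sema3c (562, 498 and 598 CPM) and Ntn4 (227, 168 and 237 CPM) were lowest in replicate 2, in CPM and in TPM. The endothelial sum, given in TPM, was not the lowest there. Ephb4 was lowest in replicate 2 in CPM (315, 311 and 376 CPM) but in replicate 1 in TPM (234, 235 and 269.6 TPM). Plxnb2 was lowest in replicate 3, with 299.6, 285 and 266 CPM.

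**Figure D5:**
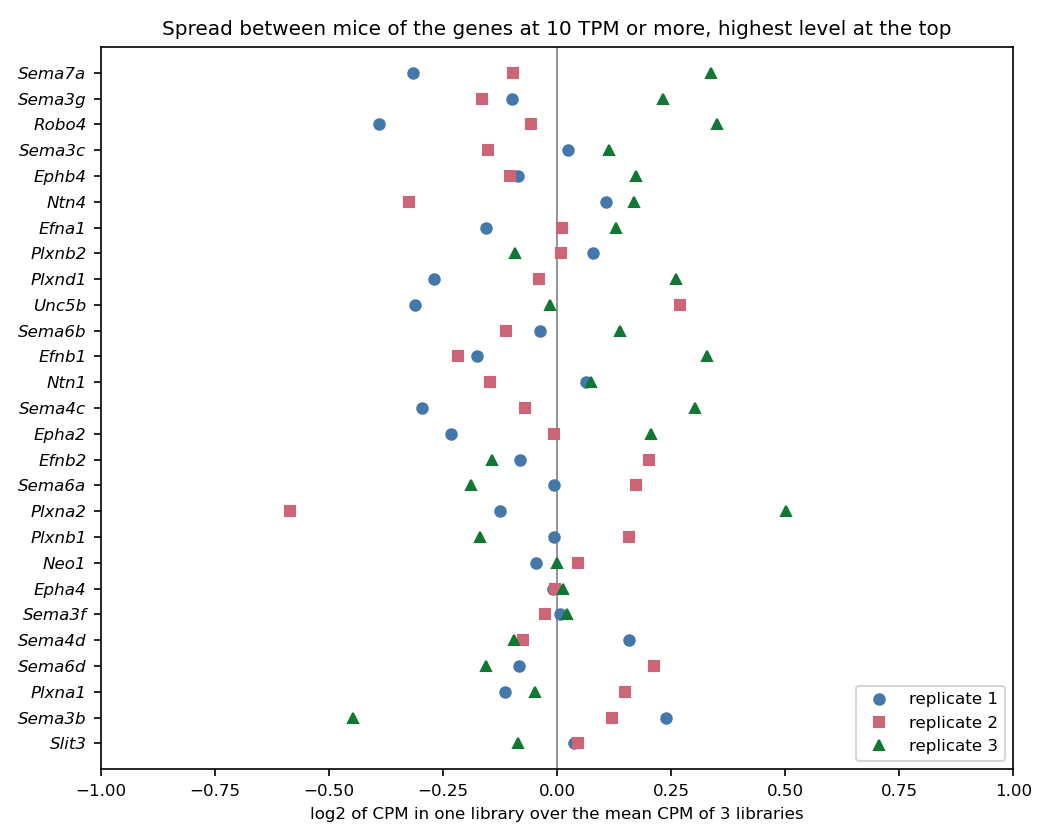
Log2 of the CPM in 1 library over the mean CPM of 3 libraries, for the 27 guidance genes at 10 TPM or more, from the highest level at the top to the lowest; symbols are replicates 1, 2 and 3. Plxna2, from 126 to 267 CPM, spans the widest range, and Epha4 and Sema3f show almost no spread.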

How the data were processed

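Polyadenylated RNA of 3 replicates was sequenced from 400 ng of total RNA with a stranded kit as paired reads of 150 bp, per the labels' protocols. Raw counts per gene were deposited by the authors. The submitters' processing notes list featureCounts, Subread 1.4.6-p5 and the build GRCm39. Whether counting used strand, how multi-mapping reads were treated, and which aligner and annotation were used is not given in the sources, so genes that overlap on opposite strands may share counts.

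CPM used TMM library sizes from edgeR 4.0.16 (R 4.3.3). TPM used the union of exons in GENCODE M21 (build GRCm38, used only for lengths, overlaps and sequence identity), matched by symbol for 49086 genes holding 98.3% of the counts. Spread between mice was tested in edgeR: an intercept-only quasi-likelihood fit over the 18087 genes passing filterByExpr, in which an F test (upper tail) set each gene's quasi-dispersion against the trend, adjusted by Benjamini-Hochberg at 0.05. It was tested on simulated data with 200 of the more abundant genes shifted in 1 library over 17766 to 17780 genes, with 0 false calls. The simulated counts followed the dispersion trend, with no further spread from gene to gene. DESeq2 1.42.0 was an alternative. Promoter windows came from a RefSeq table of build GRCm38.p6. Python 3.11.15, numpy 2.4.6 and pandas 2.3.3 handled the tables.

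The genes, marker lists, pathway lists and pairs were chosen with earlier results of these data known; the 4 printed promoters and the motif were chosen after the levels were seen. Values per library are given for the 2 highest genes of each family, for both genes of each pair and for the 3 genes with the smallest unadjusted p; of the pathway lists the 3 highest genes are named. Alternatives covered the detection limit, scaling, gene length, overlapping genes, filter, prior and each replicate left out. One effector, listed as Grb4, was not found by that symbol. Intervals of counts are not given, and the limit for a count of 0 (3 counts) covers counting error only.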

Additional observations from a re-analysis of the deposited data

How the results depend on the processing

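The number of detected guidance genes was 57 at 0.5 CPM, 34 of 68 at 5 CPM (18.7% of all genes), 52 with DESeq2 size factors, 51 with plain library totals and 51 to 55 with 1 replicate left out. The count of 0 guidance genes called for their spread held in every alternative. Over all genes, 15 were called with DESeq2 size factors, 173 without the filter and 137 as DESeq2 dispersion outliers. Without replicate 1, 2 and 3, 7, 80 and 33 were called. A robust prior called 0 of all 18087 genes, so its 0 was fixed in advance. The lowest adjusted p over these edgeR fits was 0.0866 (no filter). At an unadjusted edgeR p under 0.05 stood 11 of 68 without the filter, against 1674 of 30513 of all genes. Without replicate 1 these were 9 of 65 against 1073 of 18436, and without replicate 2, 9 of 64 against 1188 of 18362. With DESeq2 size factors, a robust prior and no replicate 3, 5, 3 and 2 of 64 stood against 922 of 18022, 785 of 18087 and 975 of 18482. The median over all 68 genes was 3.68 TPM with the longest transcript as length, 4.31 TPM with mitochondrial and ribosomal RNA genes out of the total, 3.76 to 3.97 TPM with 1 replicate left out, and 3.48 TPM without genes overlapped over more than 10% of their length, because 4 fewer genes entered. With the longest transcript as length, 28 of 68 single levels moved by more than their SD. The receptor was higher in all libraries in 4 of 12 pairs with the longest transcript or with counts not scaled by length, and in 5 with any replicate left out. The mean log2 ratio of Plxna2 to Sema6a turned from -0.30 to 0.67 without length scaling and ranged from -0.67 without replicate 3 to 0.049 without replicate 2; the cause was not tested. Without length scaling the log2 ratio also moved, with its direction kept, to -7.85 for Ephb2 over Efnb1, -1.09 for Plxnd1 over Sema3g, -9.57 for Plxnc1 over Sema7a, -2.28 for Robo1 over Slit2 and 1.77 for Ephb4 over Efnb2. Detected co-receptors numbered 11 at 5 CPM and 11 to 13 with 1 replicate left out, and effectors 56 and 62. No paired analysis was possible because all libraries belong to 1 group. The number of libraries (3) limits the precision of every SD, and the length model limits comparisons between genes.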
